A study of Homo sapiens with 12 samples.

Results

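Transcript levels of 7 cancer-related genes known for G-quadruplex (G4) motifs were examined in A549 cells with and without PARP3. These are PDGFA and VEGFA, which encode secreted growth factors, HRAS and SRC, which encode a GTPase and a tyrosine kinase of growth signalling, MYC and HIF1A, which encode transcription factors, and BCL2, which encodes an inhibitor of apoptosis. They were chosen by symbol because such motifs have been widely described in their promoters or bodies. Earlier results of these data were known when they were chosen. All 7 were among the 25365 names of the expression table. Of the 7, 6 reached the mean level set for testing, 1 FPKM (sequenced fragments relative to transcript length and library size), and BCL2 did not. In all, 11881 genes were tested. A549 is an epithelial line from a human lung adenocarcinoma. The 4 groups of 3 libraries were wild-type cells with the vehicle DMSO, wild-type cells with 1 μM pyridostatin, PARP3-/- cells with DMSO and PARP3-/- cells with 1 μM pyridostatin, each for 24 h. The PARP3-/- cells carry a homozygous deletion made with Cas9 and were derived by cloning, and the sources used here do not state whether the libraries come from 1 clone.

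G4 DNA is a stacked fold that guanine-rich strands can adopt when runs of guanines pair with each other in planar tetrads. Such sequences are common near transcription start sites, and in reporter assays a folded G4 has been described as lowering or raising transcription, depending on the gene and the strand. Pyridostatin binds to folded G4 DNA and holds it in place, which also leads to DNA breaks and a damage response. The comparisons below address whether the transcripts of genes with described G4 motifs differed between the genotypes, with the ligand, or in their response to the ligand.

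RefSeq promoter sequences on GRCh38.p14, each from 250 bases before to 50 bases after a start site, were at hand for 4 of the 7 genes: PDGFA (4 windows), HIF1A (2 windows), HRAS and BCL2 (1 window each). MYC, VEGFA and SRC had no entry. Each window was searched on both strands for 4 runs of at least 3 G parted by 1 to 7 bases. Of all 35116 RefSeq windows of this length, 25% held such a stretch, 14.4% on the coding strand and 13.1% on the template strand. The stretches shown are printed 5′ to 3′ on the strand that carries the guanines, with the G runs in capitals. They are matches of this search, and whether they are the motifs described for these genes was not tested. For PDGFA, 2 stretches are shown, and the denser lay 80 to 51 bases before its start on the coding strand.
PDGFA, coding strand, chr7:519897-519926 (minus strand): GGGGGGGGGGGGcGGGGGcGGGGGcGGGGG
PDGFA, template strand, chr7:520364-520389 (plus strand): GGGGaaggaGGGGGGcGGGtttGGGG
HIF1A, template strand, chr14:61695436-61695464 (minus strand): GGGcgcgcGGGGaGGGGagaGGGGGcGGG
HRAS, template strand, chr11:535532-535554 (plus strand): GGGttgcGGGcgcaGGGcacGGG
The other PDGFA stretch shown lay 163 to 138 bases before a further start site, the HIF1A stretch 77 to 49 bases before its start, and the HRAS stretch 22 to 44 bases past its start. A further PDGFA window, the second HIF1A window and the BCL2 window held no stretch of these letters. A match is a description of the letters and not a measured fold of the DNA.

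The libraries were estimated to hold 21700000 to 30700000 reads. One library stood apart from the other 11: wild-type vehicle replicate 2 had the largest summed FPKM (563473 against 492839 to 525124) and the largest root mean square deviation from its group on the log2 scale (0.33 against 0.26 to 0.30). The 8 fixed A549 markers were the epithelial genes KRT8, KRT18, KRT19, EPCAM and CDH1 and the enzyme genes NQO1, AKR1B10 and ALDH1A1. All 8 were present in every library, from KRT8 (2766 to 3375 FPKM) to EPCAM (0.879 to 2.36 FPKM), and CDKN2A, which A549 has lost, was listed at 0 in all 12. Of 7 markers of blood, endothelial, stromal and muscle cells, CD3E was listed at 0 in all 12 libraries, PTPRC in 10, VWF in 8, DES in 7 and PECAM1 in 5. The stromal markers COL1A1 (0.572 to 1.63 FPKM) and LUM (0.0359 to 0.454 FPKM) were above 0 in all 12. The mean of LUM was 0.0634 FPKM in wild-type and 0.322 FPKM in PARP3-/- libraries with vehicle. The transcript of the targeted gene, PARP3, was not lower in the libraries labelled PARP3-/-: it was 4.41 ± 0.447 FPKM with vehicle and 4.58 ± 0.245 FPKM with pyridostatin, against 3.73 ± 0.293 and 3.79 ± 0.243 FPKM in wild-type cells (SD, n = 3 each). Over both treatments it was higher in them (log2 fold change 0.21, standard error 0.0506, limma adjusted p = 0.0154). The Cas9 deletion is described in the first exon, and FPKM over the whole gene need not fall with it, so that this level does not check the genotype. The groups are named as the libraries are labelled. CDKN1A, the p53 target p21, was 87.0 ± 7.27 FPKM in wild-type cells with vehicle and 193 ± 3.40 with pyridostatin, and 100.1 ± 3.90 and 208 ± 8.67 FPKM in PARP3-/- cells (SD, n = 3 each).

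On the FPKM scale, which is per transcript length and so allows genes to be compared, the 7 genes ranged widely. Over the 12 libraries the mean level was 121 FPKM for HIF1A, 75.3 FPKM for SRC, 70.9 FPKM for MYC and 58.9 FPKM for HRAS. These 4 lay above 94.6%, 91.0%, 90.3% and 88.1% of the tested genes. VEGFA (12.05 FPKM) and PDGFA (8.06 FPKM) lay near the middle of the tested genes, above 53.6% and 41.6% of them, and BCL2 was at 0.886 FPKM. The ranges of SRC (72.6 to 79.6 FPKM) and MYC (67.3 to 73.6 FPKM) overlapped, and so did those of MYC and HRAS (53.3 to 68.3 FPKM). The other neighbours in this order did not overlap. The spread over all 12 libraries also differed between genes, with a coefficient of variation of 3.17% for MYC, 3.45% for SRC, 6.64% for HRAS, 8.74% for VEGFA, 9.53% for HIF1A, 21.7% for BCL2 and 23.5% for PDGFA. The plot of levels by library shows that the spread of PDGFA lay between the groups, while that of BCL2 lay within them.

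**Figure D1:**
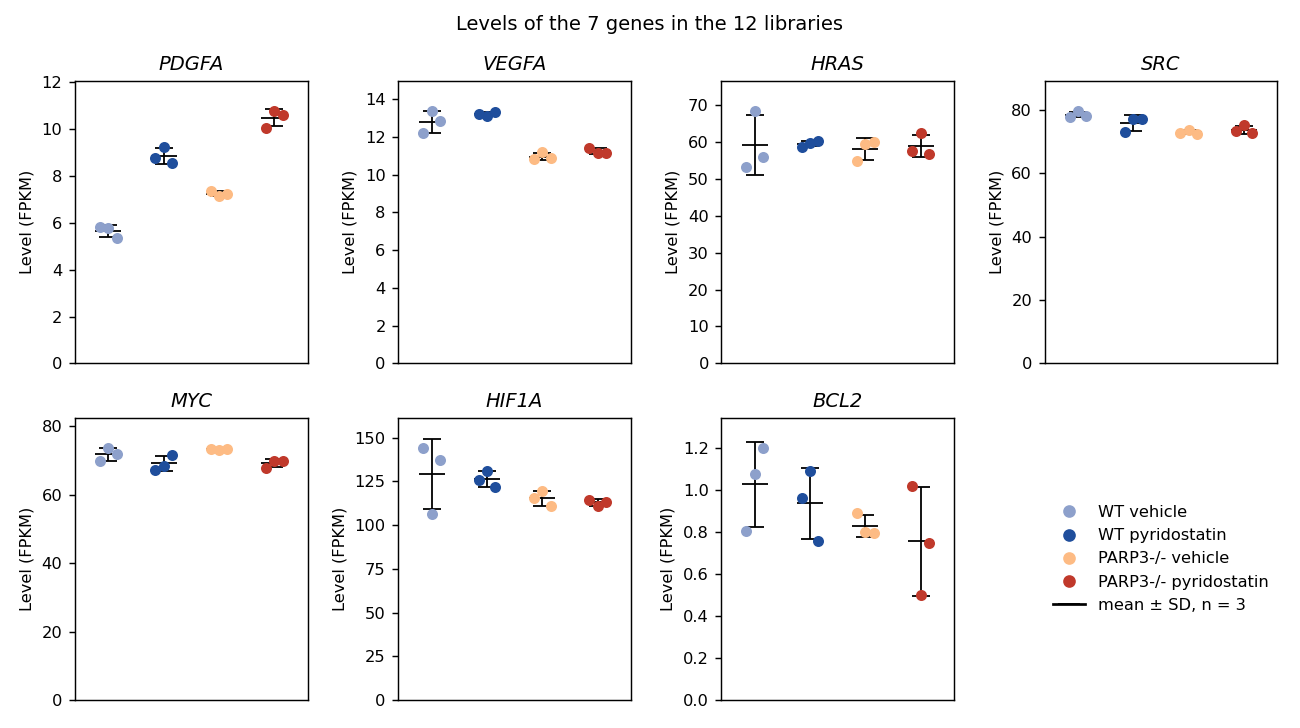
Level in FPKM (linear axis from 0, one scale per gene) of the 7 genes in each of the 12 libraries, coloured by genotype and treatment, with the mean and SD of each group (n = 3). PDGFA rises from 5.66 FPKM in wild-type vehicle to 10.5 FPKM in PARP3-/- pyridostatin libraries with 4 groups that do not overlap, and VEGFA is lower in all 6 PARP3-/- libraries.

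Differences were fitted with limma on log2(FPKM + 1) across all 11881 genes, and every adjusted p is from that fit after Benjamini and Hochberg. The added 1 makes fold changes of low genes smaller than their FPKM ratios, and in cultures fewer cells with a transcript and less transcript per cell cannot be told apart. Over both treatments, 3 of the 6 tested genes differed between the genotypes: PDGFA was higher in PARP3-/- cells, and VEGFA and SRC were lower. Of all tested genes, 19.1% passed this test, 12.2% as higher and 6.95% as lower. With pyridostatin, over both genotypes, 1 of the 6 genes changed, PDGFA, which rose. In that comparison 13.9% of all tested genes passed, 7.71% as higher and 6.24% as lower. The median log2 difference of the 6 genes was -0.05 between genotypes and 0.00 with pyridostatin, beside 0.01 and 0.00 over all tested genes. Within single conditions the test called 2 of the 6 between genotypes with vehicle (9.41% of all tested genes), 2 of 6 between genotypes with pyridostatin (10.9%), 1 of 6 with pyridostatin in wild-type cells (4.17%) and 1 of 6 with pyridostatin in PARP3-/- cells (5.56%). For the interaction, that is, a response to pyridostatin that differs between genotypes, limma called 0 of the 6 genes and 0% of all genes, while 521 genes had an unadjusted p under 0.05. A set of 6 genes is too small for these counts to be set apart from the shares over all genes. The plot of fold changes with their intervals shows the 6 genes side by side. The comparisons share libraries, so that the genotype and pyridostatin differences of one gene are not independent of each other.

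**Figure D2:**
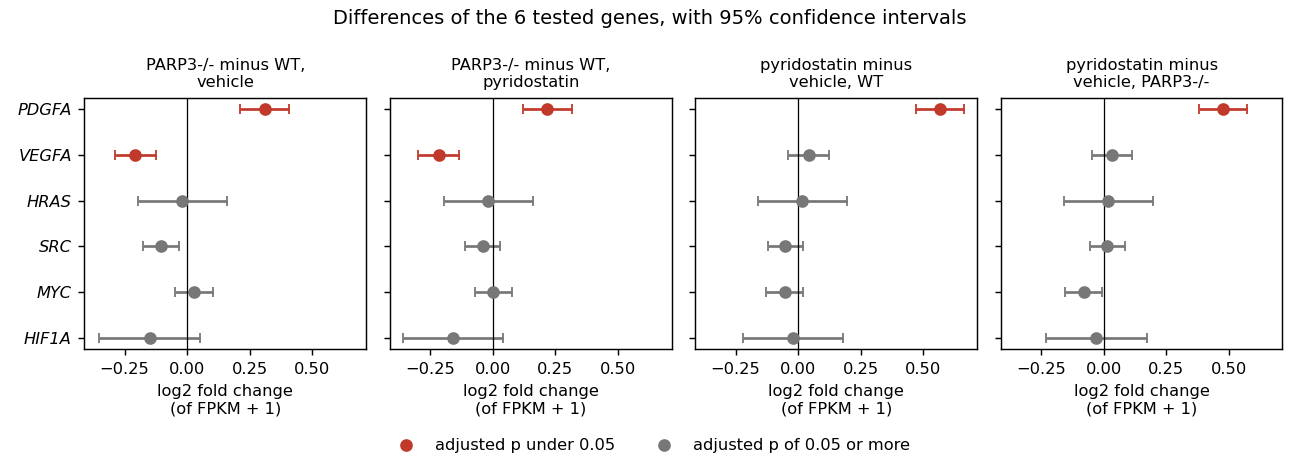
Log2 fold change of FPKM + 1 (horizontal axis) with its 95% confidence interval for the 6 tested genes in the 4 comparisons between single groups (n = 3 libraries each, all 12 in the fit). Red marks an adjusted p under 0.05: PDGFA in all 4 comparisons, with intervals above 0, and VEGFA in both genotype comparisons, with intervals below 0.

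PDGFA, the ligand that signals through PDGF receptor alpha, had the largest fold changes of the 6 tested genes. In wild-type cells with vehicle the 3 libraries held 5.83, 5.79 and 5.35 FPKM. With pyridostatin they held 8.78, 9.24 and 8.57 FPKM. PARP3-/- libraries held 7.37, 7.14 and 7.23 FPKM with vehicle, and 10.1, 10.8 and 10.6 FPKM with pyridostatin. The 4 groups did not overlap: every library with pyridostatin lay above every library with vehicle, and within each treatment every PARP3-/- library lay above every wild-type one. Against the wild-type vehicle mean of 5.66 ± 0.268 FPKM (SD, n = 3), the mean was 1.28 times as high in PARP3-/- cells with vehicle, 1.57 times in wild-type cells with pyridostatin and 1.85 times in PARP3-/- cells with pyridostatin. The log2 fold change with pyridostatin was 0.57 in wild-type cells (95% confidence interval 0.47 to 0.66, adjusted p = 1.53e-04 from limma) and 0.48 in PARP3-/- cells (0.38 to 0.57, adjusted p = 2.38e-04). Ordered from the largest rise, these were places 123 and 147 of 11881 genes. Between the genotypes the log2 fold change was 0.31 with vehicle (0.21 to 0.41, adjusted p = 0.00114 from limma) and 0.22 with pyridostatin (0.12 to 0.32, adjusted p = 0.00840). The response to pyridostatin in the 2 genotypes differed by -0.09 on the log2 scale, with an interval of -0.23 to 0.05 (adjusted p = 0.999 from limma). In the 20 alternative analyses PDGFA kept its direction and its call in each of the 6 comparisons other than the interaction.

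Of 8 tested genes for other ligands and receptors of the VEGF and PDGF families, 4 were higher in PARP3-/- cells over both treatments and 0 were lower, beside 12.2% and 6.95% of all tested genes, and the median log2 difference was 0.05 against 0.01 for all tested genes. NRP2 and NRP1, co-receptors that bind VEGF family ligands, were higher by 0.46 (adjusted p = 3.56e-04 from limma) and 0.31 (adjusted p = 0.00844). The mean level of NRP2 was 40.9 ± 6.09 FPKM in wild-type and 58.7 ± 0.919 FPKM in PARP3-/- cells with vehicle (SD, n = 3 each). PDGFC, a further ligand of PDGF receptor alpha, was higher by 0.19 (adjusted p = 0.0152 from limma). PDGFB was higher by 0.13, a call that 8 of 19 alternative analyses kept. With pyridostatin 1 of the 8 rose, beside 7.71% of all tested genes. This was PDGFC, by 0.18 (adjusted p = 0.0283 from limma, kept in 9 of 19 alternatives). It went from 2.05 ± 0.195 to 2.21 ± 0.117 FPKM in wild-type cells and from 2.24 ± 0.0573 to 2.93 ± 0.254 FPKM in PARP3-/- cells (SD, n = 3 each). Taken by genotype, PDGFC passed with pyridostatin in PARP3-/- cells (0.28, adjusted p = 0.0339 from limma) and not in wild-type cells, and its interaction was not called. No other tested gene of the list passed the test with pyridostatin. The list held 13 genes, and PGF was the highest of those below the level set for testing. With pyridostatin PGF went from 0.359 ± 0.0808 to 0.985 ± 0.181 FPKM in wild-type cells. In PARP3-/- cells it went from 0.496 ± 0.114 to 0.923 ± 0.0889 FPKM (SD, n = 3 each), and this change was not tested.

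VEGFA, the endothelial growth factor, differed by genotype and not detectably with pyridostatin. Wild-type libraries held 12.2, 13.4 and 12.9 FPKM with vehicle and 13.2, 13.1 and 13.3 FPKM with pyridostatin. PARP3-/- libraries held 10.8, 11.2 and 10.9 FPKM with vehicle and 11.4, 11.2 and 11.1 FPKM with pyridostatin. All 6 PARP3-/- libraries lay below all 6 wild-type libraries, whereas the treatments overlapped in each genotype. The log2 fold change between genotypes was -0.21 with vehicle (standard error 0.0366, interval -0.29 to -0.13, adjusted p = 0.00450 from limma) and -0.22 with pyridostatin (interval -0.30 to -0.14, adjusted p = 0.00324). The first of these missed the threshold when only the 6 vehicle libraries entered the fit (adjusted p = 0.0839 from limma), and the pooled difference of -0.21 (adjusted p = 1.91e-04) held in all 20 alternatives. With pyridostatin the log2 fold change was 0.04 in wild-type cells (interval -0.04 to 0.12, adjusted p = 0.564 from limma) and 0.03 in PARP3-/- cells (interval -0.05 to 0.11, adjusted p = 0.687).

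Several of the fixed marker genes moved with genotype as VEGFA and PDGFA did, and their part in these results was not tested. Of the 8 A549 markers, 1 was higher and 6 lower in PARP3-/- cells over both treatments, beside 12.2% and 6.95% of all tested genes. KRT19 was higher (log2 fold change 0.85), and EPCAM (-0.50), CDH1 (-0.47) and the enzyme gene AKR1B10 (-0.42) were among the lower. With vehicle the means of the enzyme genes AKR1B10, ALDH1A1 and NQO1 were 2049, 2083 and 682 FPKM in wild-type and 1548, 1692 and 558 FPKM in PARP3-/- libraries. The summed level of the 8, enzyme genes included, was 10434 to 11764 FPKM in wild-type vehicle, 10601 to 10828 in wild-type pyridostatin, 9055 to 9722 in PARP3-/- vehicle and 8693 to 9281 FPKM in PARP3-/- pyridostatin libraries. The summed level of the 7 markers of other cells was 0.726 to 0.942, 0.794 to 1.05, 1.502 to 1.77 and 1.66 to 1.96 FPKM in the same order, most of it from COL1A1 (0.572 to 1.63 FPKM), a collagen gene that was higher in PARP3-/- cells (log2 fold change 0.41, adjusted p = 6.65e-04 from limma). With pyridostatin 1 of the 8 A549 markers rose and 0 fell, beside 7.71% and 6.24% of all tested genes. It was CDH1, by 0.17 on the log2 scale (adjusted p = 0.0233 from limma, kept in 17 of 20 alternatives).

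SRC, the founding member of a family of non-receptor tyrosine kinases, varied by a few percent. With vehicle it was 77.8, 79.6 and 78.2 FPKM in wild-type and 72.6, 73.6 and 72.6 FPKM in PARP3-/- libraries. With pyridostatin it was 73.0, 77.2 and 77.3 FPKM in wild-type and 73.2, 75.2 and 72.8 FPKM in PARP3-/- libraries. The 3 wild-type vehicle libraries lay above the other 9, which overlapped with one another. The log2 fold change between genotypes was -0.11 with vehicle (interval -0.18 to -0.03, adjusted p = 0.0680 from limma), -0.04 with pyridostatin (interval -0.11 to 0.03, adjusted p = 0.512) and -0.07 over both treatments (interval -0.12 to -0.02, adjusted p = 0.0472). The last of these was past the threshold in 6 of 20 alternative analyses, and its adjusted p ran from 0.0169 to 0.113. With pyridostatin the log2 fold change of SRC was -0.02 over both genotypes (interval -0.07 to 0.03, adjusted p = 0.650 from limma). Of 8 tested genes for other SRC family kinases and their partners, 2 were higher in PARP3-/- cells and 0 lower, beside 12.2% and 6.95% of all tested genes, with a median log2 difference of 0.02. These were the focal adhesion adaptors PXN (paxillin, 0.31, adjusted p = 9.53e-05 from limma) and BCAR1 (p130Cas, 0.25, adjusted p = 0.00104), both substrates of SRC. With pyridostatin CTTN, the actin-binding SRC substrate cortactin, was higher by 0.08 (adjusted p = 0.0489 from limma), a call kept in 3 of 20 alternatives.

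HRAS, one of the RAS GTPases that switch on the RAF and ERK kinases, did not change detectably. It was 53.3, 68.3 and 55.9 FPKM in wild-type vehicle, 54.7, 59.5 and 60.0 FPKM in PARP3-/- vehicle, 58.7, 59.7 and 60.2 FPKM in wild-type pyridostatin and 57.6, 62.3 and 56.7 FPKM in PARP3-/- pyridostatin libraries. All 4 groups overlapped, and the highest value was that of wild-type vehicle replicate 2. The log2 fold change over both treatments was -0.02 between genotypes (interval -0.14 to 0.11, adjusted p = 0.874 from limma) and over both genotypes 0.02 with pyridostatin (interval -0.11 to 0.14, adjusted p = 0.865). Both signs turned in some of the alternatives. Of 18 tested RAS proteins, regulators and downstream kinases, 3 were higher in PARP3-/- cells and 0 lower, beside 12.2% and 6.95% of all tested genes, with a median log2 difference of 0.04. The 3 were RAS-related GTPases: MRAS (log2 fold change 0.40, adjusted p = 4.65e-05 from limma), RRAS2 (0.28, adjusted p = 0.00135) and RRAS (0.22, kept in 8 of 20 alternatives). With pyridostatin the ERK scaffold KSR1 rose by 0.34 (adjusted p = 0.0165 from limma), MAPK3, which encodes ERK1, rose by 0.22 (adjusted p = 0.00937), and MAP2K1, which encodes MEK1, fell by 0.11 on the log2 scale (kept in 13 of 20 alternatives).

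Of 11 tested genes that ERK activity is known to induce, 6 passed as higher in PARP3-/- cells and 0 as lower over both treatments, beside 12.2% of all tested genes that passed as higher, and their median log2 difference was 0.13 against 0.01. The feedback inhibitor SPRY2 was 6.64 ± 0.414 FPKM in wild-type and 11.6 ± 0.290 FPKM in PARP3-/- cells with vehicle (SD, n = 3 each), a log2 fold change of 0.69 over both treatments (standard error 0.0467, adjusted p = 2.11e-06 from limma). DUSP6, a phosphatase that switches off ERK, was higher by 0.49 (adjusted p = 2.27e-05 from limma), the AP-1 gene FOSL1 by 0.45 and PHLDA1 by 0.40. The count of 6 ran from 4 to 6 over the alternatives and was 6 without wild-type vehicle replicate 2. With pyridostatin 1 of the 11 rose, DUSP6, by 0.20 (adjusted p = 0.0127 from limma), beside 7.71% of all tested genes.

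MYC, the transcription factor whose promoter holds one of the best-studied G4 elements, was the steadiest of the 7 genes. It was 69.8, 73.6 and 72.0 FPKM in wild-type vehicle and 73.3, 72.9 and 73.3 FPKM in PARP3-/- vehicle libraries. With pyridostatin it was 67.3, 68.5 and 71.6 FPKM in wild-type and 67.9, 69.9 and 69.9 FPKM in PARP3-/- libraries. In PARP3-/- cells all 3 pyridostatin libraries lay below all 3 vehicle libraries, and in wild-type cells the treatments overlapped. The log2 fold change with pyridostatin was -0.05 in wild-type cells (interval -0.13 to 0.02, adjusted p = 0.399 from limma) and -0.08 in PARP3-/- cells (interval -0.15 to -0.0044, unadjusted p = 0.0400, adjusted p = 0.229). Over both genotypes it was -0.07 (interval -0.12 to -0.01, adjusted p = 0.0927 from limma), and no alternative brought it past the threshold (adjusted p 0.0549 to 0.380). Between genotypes it was 0.02 (interval -0.04 to 0.07, adjusted p = 0.725 from limma), a sign that turned after a shift of the libraries to one median.

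Of 9 tested genes of the MYC network, 1 passed between genotypes and 3 passed with pyridostatin, beside 19.1% and 13.9% of all tested genes. MXD4, which encodes a MAX partner that opposes MYC, was higher in PARP3-/- cells by 0.28 (adjusted p = 8.27e-04 from limma) and rose with pyridostatin by 0.40 (adjusted p = 1.75e-04), from 4.33 ± 0.432 to 5.81 ± 0.344 FPKM in wild-type and from 5.25 ± 0.0892 to 7.50 ± 0.187 FPKM in PARP3-/- cells (SD, n = 3 each). With pyridostatin FBXW7, which encodes the ubiquitin ligase subunit that targets MYC for degradation, also rose by 0.23 (adjusted p = 0.0177 from limma), and MXD3 fell by 0.33 on the log2 scale (adjusted p = 0.00499). MXD1, below the level set for testing, went from 0.644 ± 0.0187 to 0.967 ± 0.0386 FPKM with pyridostatin in wild-type cells. In PARP3-/- cells it went from 0.891 ± 0.113 to 1.25 ± 0.0305 FPKM (SD, n = 3 each). MYCL and MYCN, also not tested, had no group mean above 0.283 FPKM. Of 11 tested genes known as MYC targets, 0 were higher and 4 lower in PARP3-/- cells, beside 12.2% and 6.95% of all tested genes: NCL (nucleolin, log2 fold change -0.20, adjusted p = 0.00182 from limma), NOP56 (-0.14), NOP58 (-0.14) and NPM1 (-0.14). With pyridostatin 0 were higher and 3 lower, beside 7.71% and 6.24% of all tested genes, namely SHMT2, an enzyme of serine metabolism (-0.19, adjusted p = 0.00555 from limma), NPM1 (-0.12) and NCL (-0.11). The median log2 difference of the 11 targets was -0.09 between genotypes and -0.11 with pyridostatin, beside 0.01 and 0.00 for all tested genes. Of these 7 calls, NCL between genotypes and SHMT2 held in all 20 alternatives. The count lower with pyridostatin ran from 1 to 6, the highest being that without wild-type vehicle replicate 2, and the count lower between genotypes ran from 2 to 5. Within single conditions 0 of the 11 passed between genotypes with vehicle and 3, as lower, with pyridostatin, beside 9.41% and 10.9% of all tested genes. The ligand comparison called 0 in wild-type and 2, as lower, in PARP3-/- cells, beside 4.17% and 5.56%. NCL was 403 ± 17.1 FPKM with vehicle and 402 ± 18.4 FPKM with pyridostatin in wild-type cells. In PARP3-/- cells it was 379 ± 12.8 and 325 ± 6.64 FPKM (SD, n = 3 each). The interaction was called for 0 of the 11.

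HIF1A, the oxygen-regulated subunit of the hypoxia-inducible factor HIF-1, was the most abundant of the 7 transcripts. With vehicle it was 144, 106 and 137 FPKM in wild-type and 115, 120 and 111 FPKM in PARP3-/- libraries. With pyridostatin it was 126, 131 and 122 FPKM in wild-type and 115, 111 and 113 FPKM in PARP3-/- libraries. Apart from wild-type vehicle replicate 2, which held the lowest value of all 12, every wild-type library lay above every PARP3-/- library. The log2 fold change between genotypes was -0.15 with vehicle (interval -0.35 to 0.05, adjusted p = 0.394 from limma), -0.16 with pyridostatin (interval -0.36 to 0.04, adjusted p = 0.334) and -0.15 over both treatments (interval -0.30 to -0.01, adjusted p = 0.129). Without wild-type vehicle replicate 2 these became -0.28 (adjusted p = 0.00184 from limma), -0.16 (adjusted p = 0.0164) and -0.22 (adjusted p = 3.38e-04). Among the other 19 alternatives the pooled difference passed only after a shift of the libraries to one median (adjusted p = 0.0446 from limma) and that with pyridostatin only when the 6 pyridostatin libraries were fitted alone (adjusted p = 0.0301). With pyridostatin the log2 fold change over both genotypes was -0.03 (interval -0.17 to 0.12, adjusted p = 0.833 from limma), and without that library it was -0.09 (adjusted p = 0.0481).

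Of 8 tested HIF subunits and regulators, 1 was higher and 1 lower in PARP3-/- cells, beside 12.2% and 6.95% of all tested genes. ARNT2, a dimerization partner, was higher by 0.32 (adjusted p = 1.85e-04 from limma). EPAS1, which encodes the alternative subunit HIF-2α, was lower by a log2 fold change of -0.17 (adjusted p = 0.0131 from limma). With pyridostatin 3 of the 8 rose and 0 fell, beside 7.71% and 6.24% of all tested genes. These were ARNT2, by 0.22 (adjusted p = 0.00447 from limma), ARNT, by 0.15 (kept in 16 of 20 alternatives), and HIF1AN. The last encodes the asparagine hydroxylase that restrains HIF, and it rose by 0.15 (adjusted p = 0.0108 from limma). Of 15 tested genes known as HIF targets, 5 were lower and 1 higher in PARP3-/- cells, beside 6.95% and 12.2% of all tested genes, and their median log2 difference was -0.01. The count lower ran from 3 to 6 over the alternatives. SLC2A3, which encodes the glucose transporter GLUT3, had the largest difference of the list, with 9.55 ± 0.493 FPKM in wild-type and 3.83 ± 0.388 FPKM in PARP3-/- cells with vehicle (SD, n = 3 each) and a log2 fold change of -1.14 over both treatments (standard error 0.0475, adjusted p = 5.15e-08 from limma). The peptide hormone gene ADM (-0.22, adjusted p = 5.81e-04 from limma) and the glycolytic genes PGK1 (-0.18) and ENO1 (-0.18, kept in 19 of 20 alternatives) were also lower. The fifth was LDHA (-0.09, adjusted p = 0.0487 from limma, kept in 7 of 20 alternatives), and the collagen-modifying enzyme P4HA2 was higher by 0.37 (adjusted p = 1.03e-05). With pyridostatin 1 of the 15 changed, beside 13.9% of all tested genes. This was the histone demethylase gene KDM3A, which rose by 0.20 (adjusted p = 0.0268 from limma, kept in 15 of 20 alternatives). It went from 6.67 ± 0.529 to 8.61 ± 0.490 FPKM in wild-type cells and from 7.58 ± 0.246 to 8.06 ± 0.825 FPKM in PARP3-/- cells (SD, n = 3 each). Taken by genotype, KDM3A passed in wild-type cells (0.33, adjusted p = 0.0333 from limma) and not in PARP3-/- cells, and its interaction was not called. The plot of pathway genes shows these lists together.

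**Figure D3:**
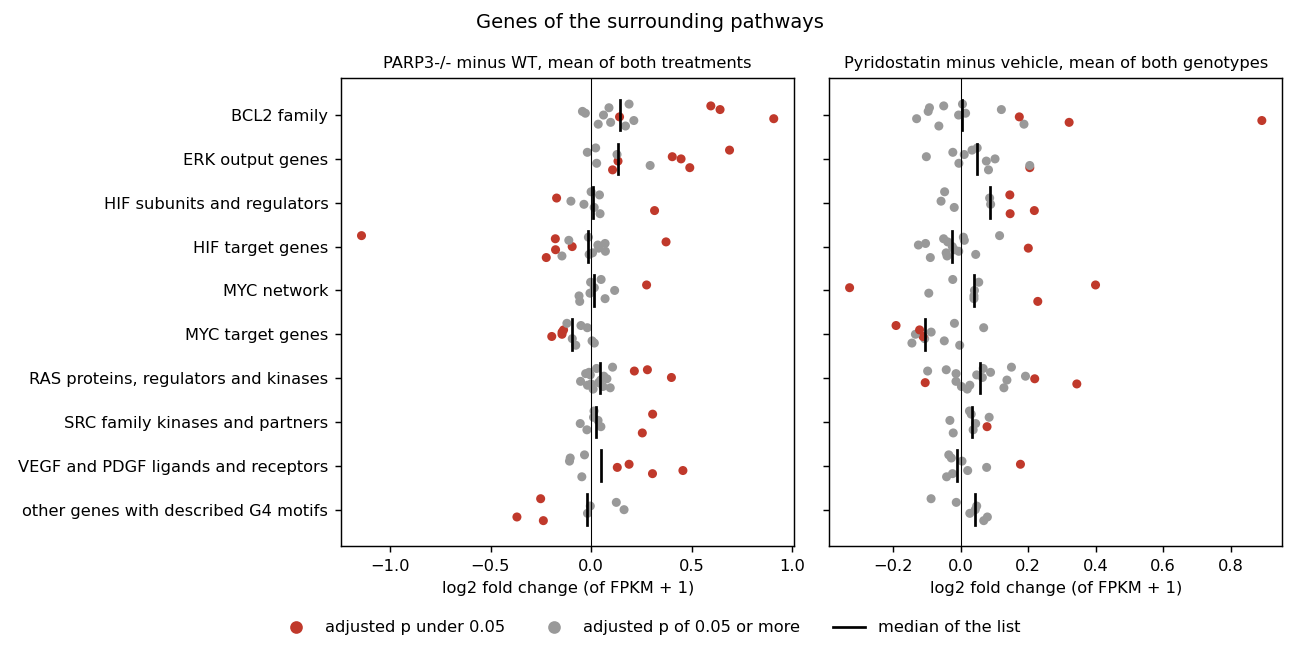
Log2 fold change of FPKM + 1 (horizontal axes, which differ in range) of each tested gene of 10 lists around the 7 genes, PARP3-/- minus wild-type over both treatments on the left and pyridostatin minus vehicle over both genotypes on the right, with a bar at the median of each list. Red points have an adjusted p under 0.05, and the farthest are SLC2A3 at -1.14 and BCL2A1 at 0.91 between genotypes and BBC3 at 0.89 with pyridostatin.

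BCL2 was the only one of the 7 below the level set for testing. It was 0.805, 1.07 and 1.20 FPKM in wild-type vehicle, 0.959, 1.09 and 0.757 FPKM in wild-type pyridostatin, 0.888, 0.797 and 0.795 FPKM in PARP3-/- vehicle and 1.02, 0.4998 and 0.747 FPKM in PARP3-/- pyridostatin libraries. All 4 groups overlapped. Over both treatments it was 0.791 ± 0.172 FPKM in PARP3-/- and 0.981 ± 0.173 FPKM in wild-type cells (SD, n = 6 each), a difference of -0.190 FPKM (exact two-sided permutation test, p = 0.0866). Leaving out wild-type pyridostatin replicate 3 or PARP3-/- pyridostatin replicate 1 took the exact permutation p under 0.05, the lower of both being 0.0390. Over both genotypes it was 0.846 ± 0.219 FPKM with pyridostatin and 0.926 ± 0.171 FPKM with vehicle (exact two-sided permutation test, p = 0.491). At this level and depth smaller differences were not detectable.

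Of 13 tested relatives of BCL2, 4 were higher in PARP3-/- cells and 0 lower, beside 12.2% and 6.95% of all tested genes, with a median log2 difference of 0.14 against 0.01 for all tested genes. Of these, 3 encode inhibitors of apoptosis: BCL2A1 (log2 fold change 0.91, adjusted p = 2.27e-05 from limma), MCL1 (0.60, adjusted p = 2.42e-05) and BCL2L1, which encodes BCL-XL (0.14). The fourth, BIK, encodes a BH3-only protein that promotes apoptosis (0.64, adjusted p = 5.71e-05 from limma). MCL1 was 81.4 ± 5.88 FPKM in wild-type and 125 ± 12.5 FPKM in PARP3-/- cells with vehicle (SD, n = 3 each). Over the alternatives this count ran from 3 to 7, the highest being that without wild-type vehicle replicate 2. With pyridostatin 3 of the 13 rose and 0 fell, beside 7.71% and 6.24% of all tested genes. BBC3, which encodes the p53-induced BH3-only protein PUMA, went from 9.32 ± 1.04 to 17.8 ± 1.29 FPKM in wild-type and from 10.7 ± 0.878 to 21.3 ± 3.00 FPKM in PARP3-/- cells (SD, n = 3 each), a log2 fold change of 0.89 (adjusted p = 3.77e-05 from limma). BAX, a further p53 target that permeabilizes mitochondria, rose by 0.32 (adjusted p = 0.00235 from limma), and BCL2L1 rose by 0.17.

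A list of 12 other genes described with promoter or 5′ G4 motifs was set beside the 7. Of these, 7 reached the level for testing. With pyridostatin over both genotypes 0 of the 7 passed the test, beside 13.9% of all tested genes. Their smallest adjusted p from limma was 0.245, 0 had an unadjusted p under 0.05, and their median log2 difference was 0.04. A list of 7 is too small to set this count apart from that share. Between genotypes 3 of the 7 were lower in PARP3-/- cells and 0 higher, beside 6.95% of all tested genes that passed as lower. Among them were the receptor gene FGFR2 (log2 fold change -0.37, adjusted p = 4.32e-04 from limma) and TERT, which encodes the catalytic subunit of telomerase (-0.25, adjusted p = 0.00338). Both were low, with 1.45 ± 0.207 and 1.67 ± 0.136 FPKM in wild-type vehicle libraries (SD, n = 3 each). MET, RB1 and NRAS did not pass, with log2 differences of 0.16, 0.13 and -0.0038.

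For each tested gene the 2 genes with the most similar pattern were found by the correlation of log2(FPKM + 1) over the 12 libraries, which share the 4 groups. PDGFA was most like ANK1, which encodes an ankyrin of the membrane skeleton (Pearson's r = 0.989, Spearman's rho = 0.979), and the homeobox gene HOXC13 (r = 0.978, rho = 0.944). ANK1 had group means of 1.25 FPKM in wild-type vehicle, 1.92 in PARP3-/- vehicle, 2.45 in wild-type pyridostatin and 3.37 FPKM in PARP3-/- pyridostatin libraries, the same order as PDGFA. VEGFA was most like GABARAPL1, an autophagy gene (r = 0.984, rho = 0.972), and the carboxylesterase gene CES1 (r = 0.975, rho = 0.972), which fell from 2.53 FPKM in wild-type to 0.211 FPKM in PARP3-/- libraries with vehicle. For HIF1A the nearest were SMEK2 (r = 0.984) and MYEF2 (r = 0.961), for HRAS BOP1 (r = 0.929) and CLN3 (r = 0.928), for MYC IMPDH2 (r = 0.925) and TUBB2B (r = 0.918), and for SRC VASN (r = 0.917) and MAPKAPK2 (r = 0.913). These were the highest of 11881 correlations for each gene and are given as a description.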

How the data were processed

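RNA from wild-type and PARP3-/- A549 cells was sequenced by the authors as stranded mRNA libraries with single-end reads of 75 bases, and the labels give the group and replicate number of each of the 12. The authors deposited one table of FPKM values, 1 column per library, so that alignment, assignment of reads and scaling to length and depth are already in the values. Per the submitters' processing notes the tools were bcl2fastq 2.16, STAR 2.5 and Cufflinks, and the builds named are hg19 and mm9, with no role given. The read counts that the authors tested with DESeq2 were not used here. All columns were mapped to samples (0 were not). Of the 25365 names, 6033 had no value above 0, 28 read as dates and 2 were repeated.

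The 11881 genes whose mean reached 1 FPKM were tested on log2(FPKM + 1), without further scaling, with limma 3.58.1 in R 4.3.3, in one model of the 4 groups (eBayes with a trend) and with Benjamini-Hochberg adjustment over all genes. A gene was called at an adjusted p under 0.05. The contrasts were genotype in each treatment, pyridostatin in each genotype, their interaction, and the average genotype and pyridostatin differences. P-values measure the spread between these libraries. The model was also run on simulated data, with independent noise in each library and known changes with pyridostatin only. That run held no genotype or interaction difference and no library that stood apart like wild-type vehicle replicate 2. Its outcome is not given here. BCL2, below the filter, was compared by an exact permutation test, which was added after the data were seen, as were the alternatives for the list genes and for BCL2.

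The 7 genes, the pathway lists and the marker lists were chosen with earlier results of these data known, from what is known of each gene. By rule, at most 4 called genes per list and comparison are named, those with the largest absolute log2 fold change. ENO1 and LDHA lie outside that rule and were added with their values known. All 8 A549 markers are named, and the levels of the enzyme genes among them were also added with their values known. Some genes and sequences that the rule would name are not reported here.

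FPKM values carry no depth. Low values are in part whole multiples of what 1 read is worth, and 20.3% to 26.1% of ratios between libraries lay at a common step. With the lengths of 377 genes this gave a median of 24400000 reads for one library (quartiles 21500000 and 27000000), so that depths are approximate. Promoter windows came from RefSeq (GRCh38.p14) and were used only for sequence. A comparison of genes with and without a G4 motif was void, since 79.0% of the tested genes had a window, under the 80% required. The alternatives were each of the 12 libraries left out, the replicate number as a block, eBayes with no trend, fits to the libraries of one comparison alone, library medians set equal, quantile normalization, a filter at 5 FPKM or none, and a pseudocount of 0.1. Python 3.11.15, numpy 2.4.6, pandas 2.3.3, scipy 1.17.1 and matplotlib 3.10.9 were used for the rest.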

Additional observations from a re-analysis of the deposited data

How the results depend on the processing

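PDGFA kept its direction and call in each of the 20 alternatives in all 6 comparisons other than the interaction (with pyridostatin over both genotypes 0.49 to 0.58 on the log2 scale), and VEGFA did so between genotypes over both treatments (-0.25 to -0.20) and with pyridostatin (-0.25 to -0.21). Differences that were not called turned sign as follows. After quantile normalization the change of SRC with pyridostatin was 0.015 and that of HIF1A 0.0142. After the shift to a common median the genotype difference of MYC was -0.018 and the change of HRAS with pyridostatin -0.0086. With 1 library left out in turn the HIF1A change with pyridostatin ran from -0.0917 to 0.0171, the HRAS change with pyridostatin from -0.0171 to 0.071, and the HRAS genotype difference from -0.0533 to 0.0348. The cause was not tested. Of 58 calls of list genes named in the text or eligible by the rule, 42 held in every alternative in which the gene was tested, 16 were lost in at least 1, and 0 turned sign.

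The number of genes called for the interaction was 1 with a pseudocount of 0.1 and 1 with no filter. With only the libraries of each comparison, 532 genes were called between genotypes with vehicle and 65 with pyridostatin in wild-type cells, in fits with fewer samples. With 1 library left out the number of calls ran from 741 to 1657 between genotypes with vehicle, 805 to 2294 between genotypes with pyridostatin, 1764 to 3229 over both treatments, 179 to 710 with pyridostatin in wild-type cells, 254 to 1554 in PARP3-/- cells, 1106 to 2283 over both genotypes, and 0 to 1 for the interaction. Each highest count other than that for the interaction was found without wild-type vehicle replicate 2. The share of calls that were higher in PARP3-/- cells over both treatments was 63.7%, and it was 52.2% after quantile normalization and 45.7% after the shift to a common median. With pyridostatin over both genotypes this share was 55.3%, and 39.9% after the shift.

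Same-numbered libraries of 2 groups deviated from their group means with correlations of -0.12 to 0.22 across genes, and 3 of 18 were over 0.1. The labels do not say whether same-numbered libraries were made together. These correlations cannot settle it, since differently numbered libraries were not compared. With the replicate block 2175 genes were called between genotypes and 1581 with pyridostatin, against 2275 and 1657 without it, and no call of the 6 tested genes changed. Depth is only estimated from FPKM values, so that counting error at low levels, such as that of BCL2, was not separated from other spread.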
